A study of Mus musculus with 8 samples.

Results

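The stretch of mouse chromosome 1 on the downstream side of Pou3f3, from Mrps9 to Nck2, was examined for contacts with the Pou3f3 promoter. Its members were the restriction fragments whose midpoint lay in chr1:42800001-43697534 of mm10, which is 102.5 kb to 1 Mb from the centre of the Pou3f3 viewpoint toward higher coordinates. They numbered 1649 fragments, of 27665 listed on chromosome 1 more than 5 kb from the viewpoint and 83192 listed in all 8 Pou3f3 files. They were set by coordinates and not by a measured value, though with earlier results of these data known. Their reads were expressed as a percentage of the library's chromosome 1 reads beyond 5 kb, here called the share of cis reads.

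The assay was a chromosome conformation capture, in which crosslinked chromatin is cut and ligated so that reads pair a chosen viewpoint with the fragments that lay near it in the nucleus. There were 8 libraries, 2 from each of 4 cell types: embryonic stem cells grown on gelatin in serum with leukemia inhibitory factor (ES), neural stem cells of E14.5 mouse cortex (NSC), E14.5 being the embryonic stage, neurons of the cortex obtained by differentiating neuronal stem cells of that stage (neuron), and N2a, a mouse neuroblastoma line. Genotype and strain are not given in the labels, no agent was compared, and each N2a library comes from the same line. Nothing in the labels ties replicates to separate cultures, and p-values therefore measure the spread between these libraries, which may be technical.

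Pou3f3 encodes a POU-domain transcription factor of the developing brain, known there from cortical progenitors and upper-layer neurons. Contacts of a promoter fall with genomic distance in all cell types, and promoters of developmental regulators can contact distal elements over long ranges, often across unrelated genes. In order of distance, the stretch held 6 protein coding genes. Mrps9 encodes a protein of the small subunit of the mitochondrial ribosome, Gpr45 an orphan G protein-coupled receptor, and Tgfbrap1 a protein that binds transforming growth factor beta receptors and serves in endosomal tethering. AI597479 is an expressed sequence, Fhl2 encodes a LIM domain protein that acts as a transcriptional cofactor, and Nck2 an adaptor that links activated receptors to the actin cytoskeleton. The annotation also gave 6 long noncoding RNA genes, 3 pseudogenes and 1 small nucleolar RNA gene, 16 genes in all.

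The promoters of 5 gene starts are shown because the fragments at these gene starts are where a contact of the Pou3f3 promoter with another promoter would be read. They are from RefSeq (GRCm38.p6, the assembly of mm10), each 300 bases 5′ to 3′ on the gene's own strand, most of them before the start. Capitals mark GATC, the site at which the deposited fragments begin, and the GC box GGGCGG on either strand (written CCGCCC on the other strand).
Mrps9, chr1:42850983-42851282, plus strand: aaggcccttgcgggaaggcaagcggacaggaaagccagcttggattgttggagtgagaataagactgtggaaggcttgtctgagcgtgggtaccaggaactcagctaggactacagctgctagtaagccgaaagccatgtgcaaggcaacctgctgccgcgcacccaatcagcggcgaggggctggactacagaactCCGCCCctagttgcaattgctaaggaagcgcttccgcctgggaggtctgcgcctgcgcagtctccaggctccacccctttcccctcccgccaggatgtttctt
Gpr45, chr1:42952622-42952921, plus strand: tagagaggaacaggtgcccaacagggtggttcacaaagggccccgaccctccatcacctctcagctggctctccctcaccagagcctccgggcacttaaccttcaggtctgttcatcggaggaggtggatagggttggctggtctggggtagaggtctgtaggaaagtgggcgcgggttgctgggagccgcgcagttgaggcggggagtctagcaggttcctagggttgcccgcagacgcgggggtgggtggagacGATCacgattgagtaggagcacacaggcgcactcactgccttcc
Tgfbrap1, chr1:43098579-43098878, minus strand: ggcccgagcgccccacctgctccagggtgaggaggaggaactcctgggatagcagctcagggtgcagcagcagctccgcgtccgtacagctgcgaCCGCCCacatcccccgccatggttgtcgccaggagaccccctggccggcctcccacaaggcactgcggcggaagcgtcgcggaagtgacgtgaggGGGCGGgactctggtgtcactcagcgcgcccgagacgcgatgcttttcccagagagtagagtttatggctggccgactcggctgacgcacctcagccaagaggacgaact
Fhl2 distal start, chr1:43196712-43197011, minus strand: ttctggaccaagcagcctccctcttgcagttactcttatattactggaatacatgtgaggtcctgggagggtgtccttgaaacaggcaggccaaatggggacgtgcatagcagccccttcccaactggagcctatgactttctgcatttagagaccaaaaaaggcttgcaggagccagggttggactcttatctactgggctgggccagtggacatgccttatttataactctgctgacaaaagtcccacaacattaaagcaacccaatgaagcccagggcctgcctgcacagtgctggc
Fhl2 proximal start, chr1:43163912-43164211, minus strand: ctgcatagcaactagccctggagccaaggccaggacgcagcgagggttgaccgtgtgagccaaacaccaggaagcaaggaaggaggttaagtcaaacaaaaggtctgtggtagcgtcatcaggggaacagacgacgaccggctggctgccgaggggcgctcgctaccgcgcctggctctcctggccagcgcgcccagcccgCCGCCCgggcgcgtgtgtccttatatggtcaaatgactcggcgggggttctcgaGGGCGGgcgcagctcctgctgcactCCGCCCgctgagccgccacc

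The GC content of these promoters was 59.0% for Mrps9, 62.0% for Gpr45, 67.0% for Tgfbrap1, 51.3% for the distal Fhl2 start and 66.0% for the proximal one. The distal Fhl2 promoter held 1 CpG and no GC box, while the proximal one held 27 CpG and 3 GC boxes, Tgfbrap1 26 CpG and 2 GC boxes, Mrps9 14 CpG and 1 GC box, and Gpr45 14 CpG and no GC box. Searched on both strands, TATAAA was found in the distal Fhl2 promoter alone of the 5, and CCAAT in that promoter and in Mrps9. The POU octamer ATGCNAAT was in none of the 5 windows. Among 32851 mouse promoters of the same length, GATC was in 48.0%, GGGCGG in 35.7%, CCAAT in 37.4%, TATAAA in 13.6% and ATGCNAAT in 3.15%. The Nck2 promoter, not shown, held 37 CpG, 3 GC boxes and 1 GATC. These matches describe the letters only. Gpr45 was the only one of the 5 whose window held a GATC, so its annotated start falls near the end of a fragment.

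The Pou3f3 files held 23894 to 87903 listed reads per library, of which 54.3% to 75.1% were on chromosome 1, and 13172 to 58081 were cis reads beyond 5 kb. The label of the viewpoint held: the stretch without listed fragments, chr1:42695817-42699251, lies over Pou3f3 itself (chr1:42695768-42700210, plus strand). Over the downstream stretch the libraries held 810 to 5245 reads on 370 to 938 fragments, with NSC replicate 1 the shallowest. In the files of the other 4 viewpoints, which lie on other chromosomes, the same stretch drew 26 to 125 reads per library, out of 86783 to 489161 listed there. Of the 1649 fragments, 390 were listed in 1 library, 1221 in 2 to 7 libraries and 38 in all 8. They covered 730.0 kb, or 81.3% of the stretch, with a median width of 322 bp. Adjacent fragments often held the same count, and 63.8% to 75.7% of a library's fragments here adjoined the one before. Listed reads were 2.09 to 2.58 times the fewest reads that could give those counts if 1 read may cover a run of fragments. The sources used here do not say whether reads were counted that way. Listed reads can therefore not be taken as independent molecules. The counting interval given below treats them as independent, so it is too narrow if 1 read was counted on several fragments. It also leaves out the spread between libraries.

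The first comparison asked how much of the Pou3f3 promoter's contacts fell on this side in each cell type. ES cells had the highest share. It was 9.81% and 10.99% of cis reads in the ES libraries, 6.15% and 5.36% in NSC, 6.43% and 5.57% in neurons, and 6.004% and 6.79% in N2a. Both ES libraries were above all 6 others, and the other 3 cell types overlapped. The ES mean was 10.4% ± 0.834, beside 5.75% ± 0.561 for NSC, 6.0% ± 0.610 for neurons and 6.40% ± 0.559 for N2a (SD, n = 2 each). In edgeR's quasi-likelihood test, NSC were lower than ES by a log2 difference of -0.85 (SE 0.19, adjusted p = 1.9e-04 over 3 contrasts). Neurons differed from NSC by 0.06 (SE 0.19, adjusted p = 0.748) and N2a from NSC by 0.15 (SE 0.19, adjusted p = 0.63), and neither passed. Against ES, in contrasts added after the data were seen, neurons stood at -0.79 (SE 0.19, adjusted p = 3.3e-04) and N2a at -0.70 (SE 0.19, adjusted p = 6.9e-04). These 3 contrasts share the ES libraries. An exact permutation test of the 4 cell types together (105 groupings, smallest possible p 0.00952) gave p = 0.0857, which misses 0.05. Its p also depends on how the other 6 libraries pair with each other, so it cannot decide on a difference of ES alone. The NSC difference lost its call with TMM factors (-0.46, adjusted p = 0.132), with DESeq2 size factors (-0.46, adjusted p = 0.130) and when listed fragments were counted in place of reads (-0.30, adjusted p = 0.133), and its adjusted p ran from 3.5e-06 to 0.133 over 8 alternatives. For neurons the call ended under TMM factors (-0.41, adjusted p = 0.0647) and listed fragments (-0.29, adjusted p = 0.0888), and for N2a under listed fragments (-0.13, adjusted p = 0.379).

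The range at the same distances upstream, chr1:41697534-42595067, which holds noncoding RNA genes and pseudogenes, gave the opposite order. Its share was 20.1% and 20.6% of cis reads in ES, 25.8% and 27.5% in NSC, 29.4% and 27.2% in neurons, and 24.2% and 30.9% in N2a, so both ES libraries were below the other 6. A large part of this gap lay over 1 noncoding RNA gene, Gm29260, whose reads also enter the ratio below. It held 3.04% and 3.75% in ES, 9.47% and 8.24% in NSC, 11.7% and 8.87% in neurons, and 6.80% and 6.77% in N2a. Over all upstream windows within 1 Mb, the median log2 difference against ES was -0.09 for NSC, 0.09 for neurons and 0.32 for N2a. Because the shares of a library sum to a fixed total, the ratio of downstream to upstream reads, in which library size cancels, was also taken. It was 0.487 and 0.533 in ES and 0.195 to 0.248 in the other 6 libraries. The ES mean was 0.510 ± 0.0326, beside 0.217 ± 0.0309 for NSC, 0.211 ± 0.00990 for neurons and 0.234 ± 0.0197 for N2a (SD, n = 2 each). The groups of ES and non-ES libraries did not overlap, while the exact permutation test over the 4 cell types again gave p = 0.0857, and p = 0.0857 after adjustment over the share and the ratio. It was 0.0476 without NSC replicate 1. Within 102.5 kb of the viewpoint but beyond 5 kb, the downstream share did not set ES apart, at 14.2% ± 0.639 for ES, 14.4% ± 2.66 for NSC, 13.8% ± 0.692 for neurons and 11.3% ± 1.43 for N2a (SD, n = 2 each). Beyond 1 Mb downstream the share was 20.34% and 20.28% in ES and 12.5% to 20.35% in the other libraries. N2a replicate 1 (20.35%) was slightly above both ES libraries, and all other non-ES libraries were below both. The means were 20.3% ± 0.0458 for ES, 17.4% ± 1.88 for NSC, 16.2% ± 0.256 for neurons and 16.4% ± 5.52 for N2a (SD, n = 2 each).

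**Figure D1:**
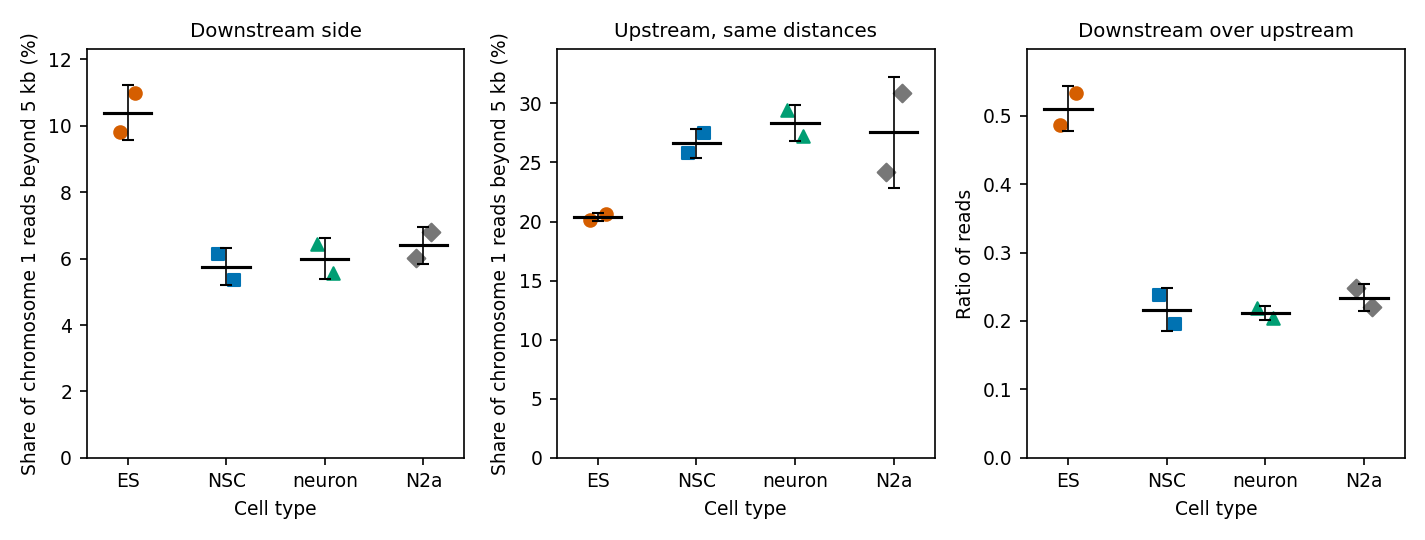
Share of cis reads (percent, vertical axis) on the downstream side, at the same distances upstream, and the ratio of the downstream to the upstream reads, for each library (points) of the 4 cell types, with the mean (line) and SD (bar, n = 2). Both ES libraries are highest downstream (9.81% and 10.99%), lowest upstream (20.1% and 20.6%) and highest in the ratio (0.487 and 0.533).

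By distance, the differences from ES passed the test in the 2 farther of 3 bands, except for N2a in the farthest, and not in the nearest. From the start of the stretch to 200 kb, which covers the intergenic part and most of Mrps9, the share was 2.62% and 2.78% in ES, 1.84% and 2.01% in NSC, 1.91% and 2.30% in neurons, and 1.91% and 2.27% in N2a. No contrast passed there (NSC against ES -0.49, SE 0.26, adjusted p = 0.161 over 3 bands and 3 contrasts), though both ES libraries were above all other libraries. Whether the differences change with distance was not tested. From 200 to 500 kb, over the 3′ end of Mrps9 and over Gpr45, Tgfbrap1, AI597479 and Fhl2, it was 5.08% and 6.03% in ES, 3.41% and 2.21% in NSC, 3.54% and 2.34% in neurons, and 2.16% and 2.90% in N2a. The 2 ES libraries were above the rest, and NSC were lower than ES by a log2 difference of -0.99 (SE 0.25, adjusted p = 0.0035), neurons by -0.92 (adjusted p = 0.0017) and N2a by -1.13 (adjusted p = 4.2e-04). The NSC call was lost without ES replicate 2 (-0.86, adjusted p = 0.0502) and without NSC replicate 2 (-0.70, adjusted p = 0.0684), and the neuron call without neuron replicate 2 (-0.65, adjusted p = 0.130). TMM factors ended both of these calls (NSC -0.57, adjusted p = 0.246, and neuron -0.53, adjusted p = 0.210), as did DESeq2 size factors (-0.60, adjusted p = 0.148, and -0.57, adjusted p = 0.113) and listed fragments (-0.29, adjusted p = 0.208, and -0.23, adjusted p = 0.276). Listed fragments also ended the N2a call (-0.30, adjusted p = 0.160).

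From 500 kb to 1 Mb, a band of which Nck2 covers only a part, N2a libraries lay nearer to ES. The share was 2.11% and 2.17% in ES, 0.903% and 1.14% in NSC, 0.978% and 0.927% in neurons, and 1.93% and 1.62% in N2a. NSC and neurons were both below ES and N2a in every library. NSC differed from ES by -1.06 (SE 0.30, adjusted p = 0.0042), neurons from ES by -1.17 (SE 0.30, adjusted p = 9.6e-04) and N2a from NSC by 0.79 (SE 0.30, adjusted p = 0.0326), while N2a against ES did not pass (-0.27, SE 0.29, adjusted p = 0.358). The NSC against ES call was lost without ES replicate 2 (-1.04, adjusted p = 0.0502), without NSC replicate 1 (-0.91, adjusted p = 0.0934), with TMM factors (-0.69, adjusted p = 0.195) and with DESeq2 size factors (-0.67, adjusted p = 0.148). The N2a against NSC call was lost without any of ES replicate 1 (0.79, adjusted p = 0.0680), ES replicate 2 (0.79, adjusted p = 0.0647), NSC replicate 1 (0.64, adjusted p = 0.260), NSC replicate 2 (0.97, adjusted p = 0.0684) or N2a replicate 1 (0.66, adjusted p = 0.0548). The median distance of the reads on this side was 314 and 322 kb in ES, 307 and 259 kb in NSC, 272 and 231 kb in neurons, and 345 and 283 kb in N2a. Both ES values were above the NSC and neuron values, and N2a overlapped ES and NSC.

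In 20 kb windows the stretch showed a common shape. The mean share over the 4 cell types was 0.603% in the first window (chr1:42800001-42820000), 0.473% at the start of Mrps9 and 0.145% in the body of Gpr45 (chr1:42980001-43000000), and it stood at 0.316% to 0.386% in the 3 windows over Tgfbrap1 (chr1:43040001-43100000). It was 0.192% in the next window (chr1:43100001-43120000) and at most 0.130% in every window past that. Spearman's correlation over the 45 windows was 0.613 to 0.790 between replicates (4 pairs, mean 0.703) and 0.423 to 0.856 between libraries of different cell types (24 pairs, mean 0.678), a description of points that share distance from the viewpoint. ES had the highest mean in 35 of 45 windows, N2a in 9, NSC in 1 and neurons in 0. Both ES libraries were above the 6 others in 13 of 45 windows here and in 0 of 50 upstream, with 13.9% of all 101 windows within 1 Mb on either side.

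**Figure D2:**
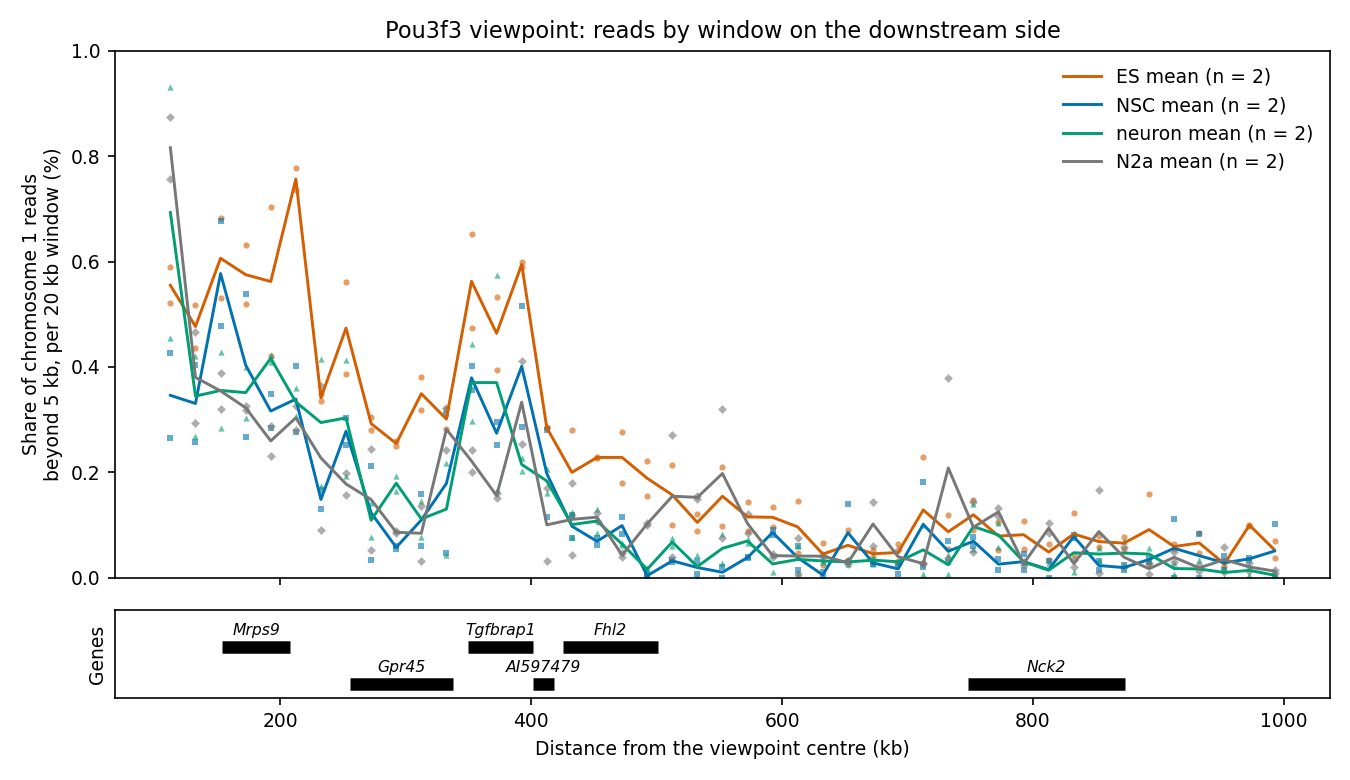
Share of cis reads (percent, vertical axis) in 20 kb windows against distance from the viewpoint centre (kb), as points for each library and lines for the mean of 2 libraries of each cell type, with the 6 protein coding genes drawn below to scale. All 4 lines dip over Gpr45 (0.145% mean at the lowest) and are higher over Tgfbrap1 (0.316% to 0.386%), and ES is the highest in 35 of 45 windows.

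Few single windows passed. The test over all 4 cell types called 2 of the 45 windows, against 14.9% of all 101 windows tested, so windows here were not called more often than the background. For NSC against ES, 2 windows were lower, with 9.9% of all windows called in either direction and 1.98% lower. Their median log2 difference was -0.999 and 41 of 45 were negative, beside -0.43 over all 101 windows and 71 negative. TMM factors moved those medians to -0.63 and -0.03. Neurons against NSC gave 0 windows in edgeR and 0 in DESeq2 (2 at an unadjusted p under 0.05 in edgeR, and 0.0% of all windows called), with a median of 0.03 in both sets. N2a against NSC gave 3 higher windows, with 5.94% of all windows called and 4.95% higher, and a median of 0.17 beside 0.28 over all windows. Against ES, neurons gave 3 lower windows (11.9% of all called, 2.97% lower, median -1.05 beside -0.51) and N2a gave 1 (3.96% of all called, 0.99% lower, median -0.83 beside 6.9e-04). In simulated tables of the same 101 windows in which ES was changed, NSC against ES called 7% of windows changed 2-fold, 57% changed 4-fold and 95% changed 8-fold, so 2-fold differences of single windows were mostly not detectable at this depth.

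**Figure D3:**
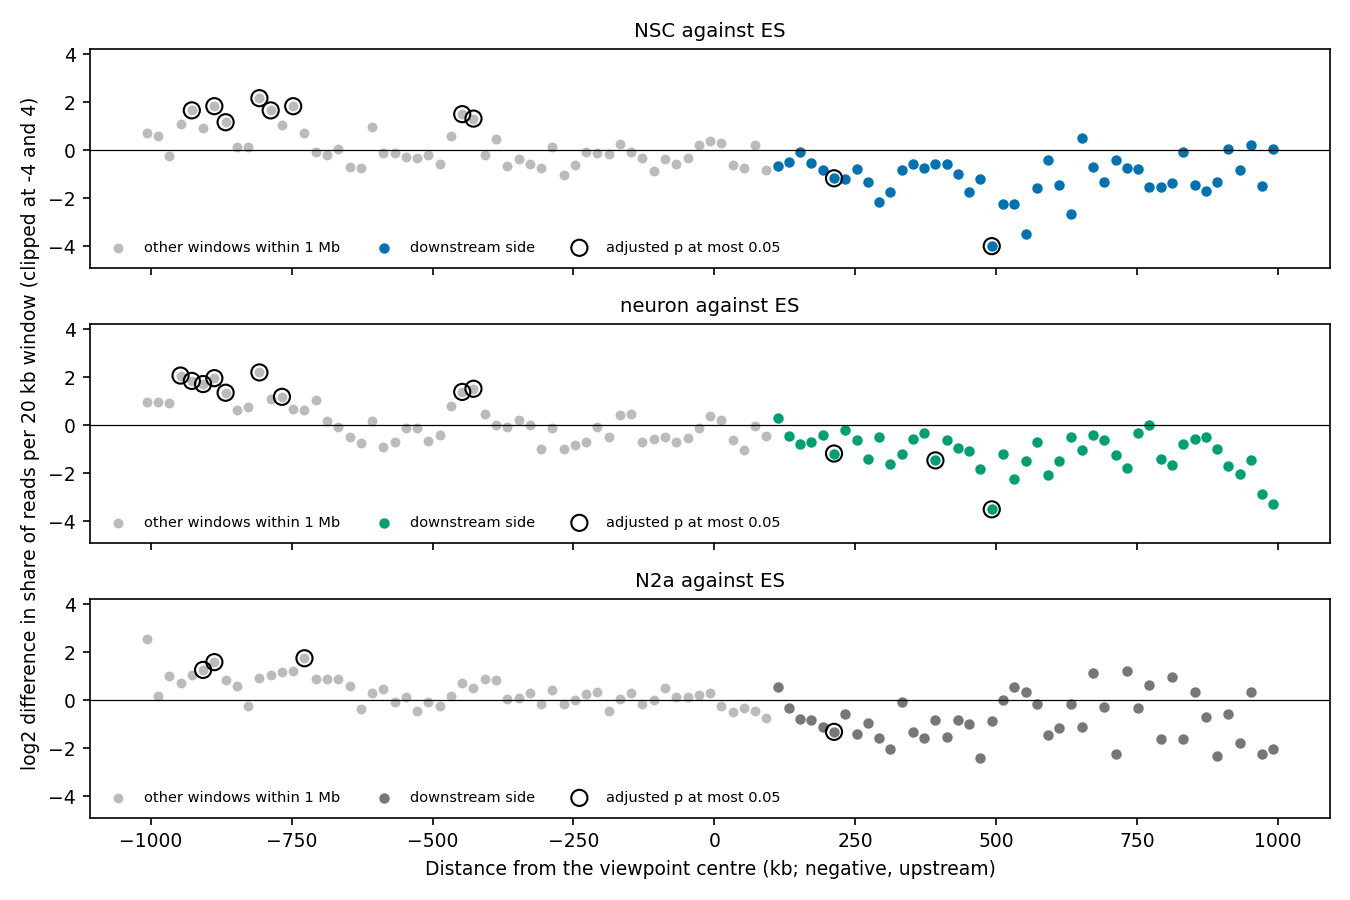
Log2 difference in share of cis reads of each 20 kb window within 1 Mb of the viewpoint, for NSC, neurons and N2a against ES, by distance (kb, negative upstream), with the downstream windows in colour, values clipped at -4 and 4 and windows at an adjusted p of at most 0.05 circled. The downstream medians are -0.999, -1.05 and -0.83, and the circled downstream windows are 2, 3 and 1, all lower than ES.

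The window at the 3′ end of Mrps9, chr1:42900001-42920000, was the one of the 45 in which ES passed against each of the other 3 cell types. It held 394 and 255 reads in ES, 53 and 106 in NSC, 130 and 108 in neurons, and 100 and 163 in N2a, or 0.737% and 0.777%, 0.402% and 0.276%, 0.307% and 0.360%, and 0.326% and 0.281% of cis reads. Both ES libraries were above 0.7% and the other 6 lay between 0.276% and 0.402%. The test over 4 cell types gave an adjusted p of 0.0114, with NSC (-1.17, SE 0.40, adjusted p = 0.0432), neurons (-1.18, SE 0.40, adjusted p = 0.0319) and N2a (-1.32, SE 0.40, adjusted p = 0.0302) all lower than ES. The adjusted p over 4 cell types was 0.300 without ES replicate 1, 0.347 without ES replicate 2, and 0.00756 to 0.611 over 9 other alternatives. The NSC call was lost without any 1 of the ES or NSC libraries (adjusted p 0.303 and 0.329 without ES replicates 1 and 2, 0.0600 and 0.177 without NSC replicates 1 and 2). The neuron call was likewise lost without either ES library (0.239 and 0.230) or either neuron library (0.127 and 0.0951), and the N2a call without either ES library (0.236 and 0.320) or either N2a library (0.0798 and 0.212).

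The window at the distal start of Fhl2, chr1:43180001-43200000, whose promoter was shown above, was nearly empty in NSC and neurons. It held 83 and 73 reads in ES, 1 and 0 in NSC, 8 and 4 in neurons, and 32 and 58 in N2a. As shares these were 0.155% and 0.222% in ES, 0.00759% and 0 in NSC, 0.0189% and 0.0133% in neurons, and 0.104% and 0.0999% in N2a, with no overlap between any pair of cell types. The adjusted p over 4 cell types was 0.0035. With a single read in NSC, the ratio of ES to NSC was 93.3 over summed reads, with a 95% counting interval of 16.5 to 3708 that takes listed reads as independent. It was 49.7 over mean shares, and the edgeR contrast gave an adjusted p of 0.0024. The fitted log2 difference of -6.22 was -4.57 without NSC replicate 2, and without NSC replicate 1 no read was left in NSC (adjusted p = 0.0215). Neurons were lower than ES by a log2 difference of -3.51 (SE 1.19, adjusted p = 0.0322), and N2a higher than NSC (adjusted p = 0.0466). N2a against ES did not pass (-0.88, SE 1.04, adjusted p = 0.667). Leaving out NSC replicate 2 took the adjusted p to 0.0845 over 4 cell types and 0.168 for NSC against ES, and leaving out ES replicate 2 took the former to 0.0546. The N2a against NSC call was lost in 7 of 8 fits with 1 library left out (adjusted p 0.0142 to 0.238), and the neuron against ES call without either ES library (0.187 and 0.216) or either neuron library (0.127 and 0.171). Other alternatives gave adjusted p of 0.0141 to 0.184 for the former and 0.0270 to 0.177 for the latter.

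The fragment that spans the distal Fhl2 start, chr1:43196645-43198091, held 5 and 9 reads in ES, 1 in N2a replicate 1 and 0 in the other 5 libraries. The fragment at the proximal start, chr1:43163813-43164599, held 1 read in ES replicate 2 and 1 in NSC replicate 2. Most reads of the windows around these starts thus lay on other fragments. The Mrps9 start fragment, chr1:42850952-42851539, held 7 and 1 reads in ES, 0 and 2 in NSC, 2 and 10 in neurons and none in N2a. At Gpr45 the start fragment, chr1:42952569-42952878, held 3 and 24 reads in ES, 1 and 0 in NSC, 4 and 0 in neurons, and 1 and 2 in N2a. Tgfbrap1 and AI597479, which are transcribed away from each other, share 1 start fragment, chr1:43098241-43098950. It held 41 reads in N2a replicate 2, 2 in neuron replicate 1, 1 in ES replicate 2 and 0 in the other 5 libraries. The fragment at a second Tgfbrap1 start, chr1:43092340-43093559, held 0 and 1 reads in ES, 4 and 4 in NSC, 5 and 0 in neurons and none in N2a, so ES was not the highest there. The Nck2 start fragment, chr1:43445092-43445784, held 2 reads in ES replicate 1 and none in the other libraries. These counts of single fragments are low and were not tested.

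Other windows passed in 1 contrast each. The first window of the stretch, chr1:42800001-42820000, between the genes, held 0.589% and 0.521% of cis reads in ES, 0.266% and 0.427% in NSC, 0.456% and 0.930% in neurons, and 0.757% and 0.875% in N2a. Both N2a libraries were above ES and NSC, and N2a was higher than NSC by 1.22 (SE 0.37, adjusted p = 0.0466), a call lost in all 8 fits with 1 library left out (adjusted p 0.0601 to 0.441) and in 6 of 9 other alternatives (0.0240 to 0.771). Over the noncoding RNA gene Gm29040, chr1:43240001-43260000 held 53 and 69 reads in ES, 0 and 8 in NSC, 12 and 25 in neurons, and 98 and 44 in N2a. N2a was higher than NSC there (3.86, SE 1.26, adjusted p = 0.0466), and the call was lost in 7 of 8 fits with 1 library left out (adjusted p 0.00174 to 0.440) and in 7 of 9 other alternatives (0.0144 to 0.194). The window with the starts of Tgfbrap1 and AI597479, chr1:43080001-43100000, held 0.589% and 0.600% in ES, 0.516% and 0.286% in NSC, 0.203% and 0.227% in neurons, and 0.255% and 0.411% in N2a. Neurons were lower than ES there (-1.47, SE 0.46, adjusted p = 0.0207), a call lost without either ES library (adjusted p 0.187 and 0.164) or either neuron library (0.125 and 0.0951), and in 4 of 9 other alternatives (0.0093 to 0.731).

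At the starts of Mrps9 and Gpr45 no contrast passed. The Mrps9 start window, chr1:42840001-42860000, held 0.682% and 0.530% in ES, 0.478% and 0.676% in NSC, 0.427% and 0.283% in neurons, and 0.320% and 0.389% in N2a, so that ES and NSC overlapped (-0.06, SE 0.36, adjusted p = 0.918). The Gpr45 start window, chr1:42940001-42960000, held 0.387% and 0.560% in ES, 0.304% and 0.252% in NSC, 0.413% and 0.193% in neurons, and 0.199% and 0.157% in N2a, and ES overlapped neurons. Of the 45 windows, 9 had 0 reads in at least 1 library.

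Over whole gene bodies, ES was again the highest for most genes, but only Fhl2 and Nck2 passed over all 4 cell types. Of the 16 genes, 11 had enough reads to be tested, all 6 protein coding genes among them. The other 5 held 0 to 19 reads in any library. Gm3418, Gm28782, 8430432A02Rik, Gm8210 and Gm23126 lie inside protein coding genes, and their reads were counted in both. The 2 called genes compare with 12.5% of the 24 genes tested within 1 Mb. Both ES libraries were above the 6 others for 6 of the 11 genes (25.0% of all 24), namely Mrps9, Gm39633, Gpr45, Tgfbrap1, Gm28782 and Fhl2. The log2 difference of NSC against ES was negative for 10 of 11 genes (median -0.96, beside -0.50 over all 24).

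Fhl2 (chr1:43123071-43198343, minus strand) showed the clearest difference. It held 0.671% and 0.932% of cis reads in ES, 0.243% and 0.276% in NSC, 0.290% and 0.283% in neurons, and 0.287% and 0.398% in N2a. ES lay above all others, NSC lay below all others, and neurons and N2a overlapped. NSC were lower than ES by a log2 difference of -1.62 (SE 0.36, adjusted p = 2.4e-04), neurons by -1.48 (SE 0.35, adjusted p = 7.2e-04) and N2a by -1.22 (SE 0.35, adjusted p = 0.0084). The NSC call held in 8 of 8 fits with 1 library left out and was lost when listed fragments were counted (-0.86, adjusted p = 0.0981, range over 8 alternatives 1.6e-04 to 0.0981). The neuron call was lost without neuron replicate 1 (-1.497, adjusted p = 0.0827) or 2 (-1.46, adjusted p = 0.0531), and with listed fragments (-0.64, adjusted p = 0.467). The N2a call was lost without ES replicate 2 (-0.97, adjusted p = 0.136), neuron replicate 2 (-1.22, adjusted p = 0.0509), N2a replicate 1 (-1.01, adjusted p = 0.317) or N2a replicate 2 (-1.48, adjusted p = 0.124), and with TMM (-0.91, adjusted p = 0.0780), DESeq2 size factors (-0.78, adjusted p = 0.102), fewest reads (-1.09, adjusted p = 0.0595) or listed fragments (-0.52, adjusted p = 0.394).

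Nck2 (chr1:43445483-43570518, plus strand), the farthest of the protein coding genes, held 0.623% and 0.390% in ES, 0.182% and 0.260% in NSC, 0.309% and 0.283% in neurons, and 0.454% and 0.460% in N2a. Here N2a fell between the ES libraries, while NSC and neurons lay below both. Its adjusted p over 4 cell types was 0.0210, and NSC were lower than ES by -1.17 (SE 0.34, adjusted p = 0.0073). That difference did not pass without ES replicate 1 (-0.80, adjusted p = 0.196), NSC replicate 1 (-0.97, adjusted p = 0.0849) or N2a replicate 1 (-1.18, adjusted p = 0.0530), nor with DESeq2 size factors (-0.77, adjusted p = 0.0875), fewest reads (-1.01, adjusted p = 0.122) or listed fragments (-0.58, adjusted p = 0.288). N2a against NSC stood at 1.02 (SE 0.34, adjusted p = 0.0871), and passed with TMM factors (1.15, adjusted p = 0.0211), without ES replicate 1 (adjusted p = 0.0187) and without ES replicate 2 (adjusted p = 0.0471). Over 4 cell types the call was lost without NSC replicate 1 (adjusted p = 0.0866) or any neuron or N2a library (0.112 to 0.129), and with the DESeq2 test (0.0587), no count filter (0.0557), fewest reads (0.150) or listed fragments (0.536). No gene passed for N2a against NSC or neurons against NSC in edgeR or DESeq2 (1 and 0 at an unadjusted p under 0.05 in edgeR, 0.0% of the 24 genes in either).

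Tgfbrap1 (chr1:43047200-43098712, minus strand) held 1.26% and 1.59% in ES, 1.02% and 0.642% in NSC, 0.982% and 0.637% in neurons, and 0.555% and 0.573% in N2a. N2a was lower than ES by -1.34 (SE 0.42, adjusted p = 0.0159), making 2 genes lower with Fhl2 (12.5% of the 24 called, 8.33% lower), and this call was lost without either ES library (adjusted p 0.111 and 0.310), neuron replicate 2 (0.0697) or either N2a library (0.317 and 0.203). Over 8 other alternatives its adjusted p ran from 9.5e-04 to 0.394, with TMM (-1.02, adjusted p = 0.287) and DESeq2 size factors (-0.88, adjusted p = 0.187) among those that ended it. Its adjusted p over 4 cell types was 0.0598, and it passed with the DESeq2 test (0.0071) and without either NSC library (0.0133 and 0.0265). NSC and neurons did not pass against ES (adjusted p = 0.248 and 0.189). Mrps9 (chr1:42851233-42905683, plus strand) held 1.39% and 1.82% in ES, 1.298% and 0.778% in NSC, 1.07% and 0.904% in neurons, and 0.708% and 0.821% in N2a, with no contrast passing. N2a against ES came nearest (-1.07, SE 0.41, adjusted p = 0.0600), and passed without NSC replicate 1 (adjusted p = 0.0162), without NSC replicate 2 (0.0158) and with DESeq2 (0.0064), but was 0.04 (adjusted p = 0.920) with listed fragments. Over 4 cell types Mrps9 had an adjusted p of 0.184, and passed with the DESeq2 test (0.0274) and without NSC replicate 1 (0.0458). Gpr45 (chr1:42952872-43035451, plus strand) held 1.27% and 1.43% in ES, 0.934% and 0.224% in NSC, 0.869% and 0.453% in neurons, and 0.428% and 0.785% in N2a. Its NSC libraries were the highest and the lowest of the 6 that were not ES, and no contrast passed (NSC against ES -1.27, SE 0.64, adjusted p = 0.248). The NSC value rested on 1 library: it was -2.59 (adjusted p = 2.7e-04) without NSC replicate 1 and -0.53 (adjusted p = 0.491) without NSC replicate 2. Neurons against NSC likewise went from 1.57 (adjusted p = 0.0428) to -0.49 (adjusted p = 0.762) between those fits. Without NSC replicate 1, neurons (-1.02, adjusted p = 0.0371) and N2a (-1.15, adjusted p = 0.0162) passed against ES, as they did without NSC replicate 2 (adjusted p = 0.0374 and 0.0158). AI597479 (chr1:43098710-43115946, plus strand) held 0.316% and 0.286% in ES, 0.326% and 0.211% in NSC, 0.163% and 0.217% in neurons, and 0.157% and 0.169% in N2a, and ES and NSC overlapped. For NSC against ES, Fhl2 and Nck2 were the 2 genes called, both lower (12.5% of the 24 called, 8.33% lower), and for neurons against ES it was Fhl2 (16.7% called, 8.33% lower).

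Per 10 kb of gene body in ES, the mean share was 0.295% for Mrps9, 0.164% for Gpr45, 0.277% for Tgfbrap1, 0.175% for AI597479, 0.106% for Fhl2 and 0.0405% for Nck2, so Tgfbrap1 had more reads per length than the nearer Gpr45. In NSC the same values were 0.191%, 0.0701%, 0.162%, 0.156%, 0.0345% and 0.0177%. The SDs of Mrps9 (0.0559) and Tgfbrap1 (0.0448) in ES exceed the gap between those 2 genes.

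**Figure D4:**
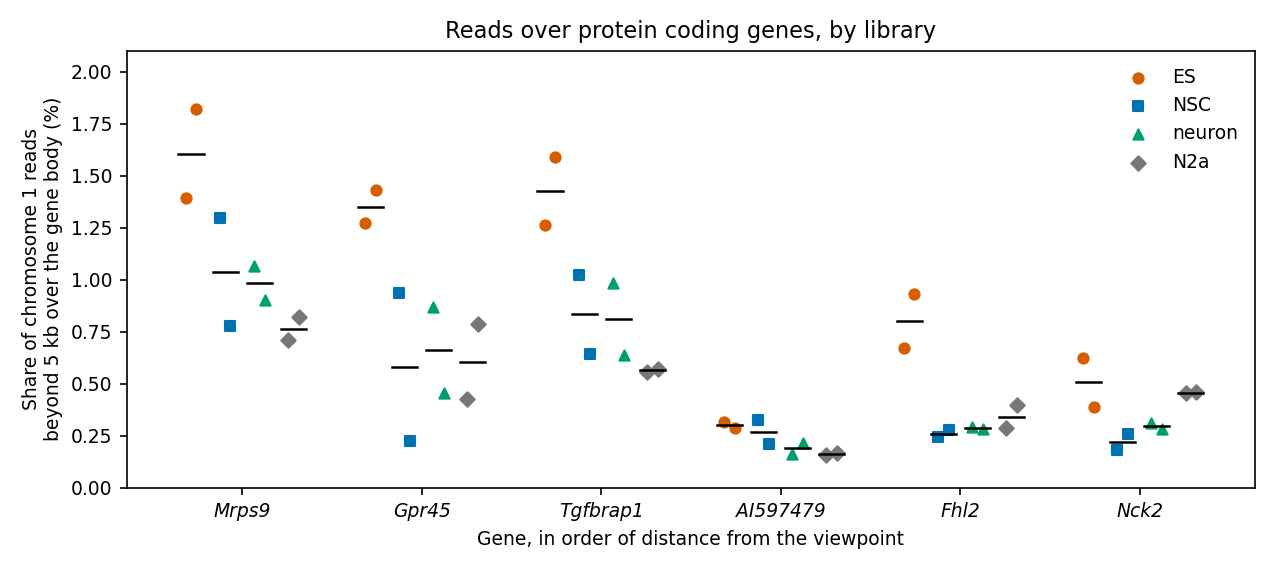
Share of cis reads (percent, vertical axis) over the body of each protein coding gene, in order of distance from the viewpoint, for each library (points) with the mean of 2 libraries (line). For Fhl2 the ES libraries (0.671% and 0.932%) are above the other 6 (0.243% to 0.398%), and for Nck2 N2a (0.454% and 0.460%) lies between the ES libraries.

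The authors' deposited q-values called few fragments here. At a q of 0.05 or less, 2 fragments of the stretch were called, both in neuron replicate 1 and adjacent to each other inside Tgfbrap1 (chr1:43073110-43073536 and chr1:43073539-43075950). Each held 52 reads at q = 0.0439 in that library, and 0 to 9 reads in the other 7. Whole Pou3f3 files held 95 to 208 such fragments, and the mirror range upstream 0 to 6. The stretch made up only 1649 of the 83192 fragments listed in these files. The counts therefore do not show whether it was poorer in calls than its size would give. The lowest q in the stretch was 0.223 and 0.0957 in the ES libraries, which had the highest shares, and 0.886 to 1.0 in NSC, neuron replicate 2 and N2a.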

How the data were processed

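The members, gene lists, windows and tests were chosen with earlier results of these data known. The submitters' processing notes name Trim Galore, Bowtie and the mm10 build. Versions, the enzyme, the treatment of duplicates and the caller of interactions were not given in the sources used here. All 395 of 395 fragment starts within RefSeq promoter windows followed a GATC boundary. The deposited tables hold counts, whole listed reads per restriction fragment, with no normalization by the authors, and the authors' q-value per fragment, which was used only as a description.

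Reads were summed by fragment midpoint in 20 kb windows within 1 Mb of the viewpoint, leaving out 5 kb on either side, and over genes, distance bands and the whole side. Library size was the total of chromosome 1 reads beyond 5 kb, with no scaling factor. An edgeR (4.0.16, R 4.3.3) robust quasi-likelihood fit with a coefficient per cell type was made for the 101 windows. A separate fit of these windows with the bands and the side added gave the results of the bands and the side only. Their spread was in part estimated from the windows, with which they share reads. Another fit was made for the 24 of 31 genes that passed filterByExpr (minimum count 10). Benjamini-Hochberg adjustment ran over all windows or genes of a contrast, over 3 contrasts for the side, and over bands and contrasts together for the bands, with a threshold of 0.05. Contrasts of neurons and N2a with ES were added after the data were seen and adjusted apart. The common dispersion of the windows was 0.157, a coefficient of variation of 39.7%, with a median of 111.5 reads per window and library. The window fit was tested on simulated data. The 4 cell types were also compared by an exact permutation test.

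The rule for what is named took every window of the side past a test, the 3 windows with the highest mean, the start windows of Mrps9, Gpr45 and Tgfbrap1, and all protein coding genes. The labels do not say whether replicate numbers pair the samples. Correlations of their deviations (-0.156 to 0.205, over 0.1 in 2 of 6 pairs) cannot decide it, and the main fits used no pairing. Alternatives were 10 and 40 kb windows, TMM (edgeR) and DESeq2 (1.42.0) size factors, reads within 1 Mb as library size, the DESeq2 test, no count filter, fewest reads per run of fragments, numbers of listed fragments, all chromosome 1 windows, a replicate block and each library left out.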

Additional observations from a re-analysis of the deposited data

How the results depend on the processing

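Apart from leaving out libraries, some calls of the whole side and its bands were lost with other library scaling (TMM or DESeq2 size factors). Some were lost with listed fragments counted in place of reads and, in 1 contrast, with the fewest reads per run. The cause was not tested. Neuron against ES from 500 kb to 1 Mb kept its edgeR or DESeq2 call in 8 of 8 alternatives (-1.25 to -0.67, adjusted p 9.6e-06 to 0.0310). N2a against ES, for the whole side and from 200 to 500 kb, lost its call only with listed fragments. For the whole side, the NSC against ES difference of -0.85 was -0.46 (adjusted p = 0.132) with TMM, -0.46 (0.130) with DESeq2 size factors and -0.30 (0.133) with listed fragments. Neuron against ES was -0.41 with TMM and -0.29 with listed fragments, and N2a against ES was -0.13 with listed fragments. With libraries left out in turn these 3 differences ran from -0.96 to -0.76, -0.90 to -0.69 and -0.79 to -0.61, and all kept their call. From 200 to 500 kb, NSC against ES was -0.57, -0.60 and -0.29 with TMM, DESeq2 size factors and listed fragments (-1.33 to -0.70 with libraries left out), neuron against ES -0.53, -0.57 and -0.23 (-1.25 to -0.65), and N2a against ES -0.30 with listed fragments. From 500 kb to 1 Mb, NSC against ES was -0.69 and -0.67 with the 2 scalings (-1.24 to -0.91 with libraries left out), and N2a against NSC 0.55, 0.60 and, with the fewest reads per run, 0.59 (0.64 to 0.97). None of the differences called in the report's own fits turned direction under the alternatives run. Differences that passed only under an alternative did: Mrps9 in N2a against ES was 0.04 with listed fragments, and Gpr45 in neuron against NSC was -0.49 without NSC replicate 2 and -0.31 without neuron replicate 1.

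Of the 45 windows, the 2 called over 4 cell types became 1 with 10 kb windows, TMM, DESeq2 size factors, fewest reads and listed fragments, and 5 with 40 kb windows or the DESeq2 test (0 to 5 with libraries left out). The 2 called for NSC against ES became 1 under those 5 settings and with all chromosome 1 windows, 5 with 40 kb windows and 4 with the DESeq2 test (0 to 4). The 3 for N2a against NSC became 0 under the same 6 settings (0 to 2). The 3 for neuron against ES became 0 with TMM, DESeq2 size factors and listed fragments, and 1 with fewest reads or all chromosome 1 windows (0 to 3). The 1 for N2a against ES became 0 with both scalings, fewest reads and listed fragments, 2 with 40 kb windows and 3 with the DESeq2 test (0 to 3). Neuron against NSC stayed at 0 throughout (0 to 0).

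Of the 11 genes, the 2 called over 4 cell types became 1 with no count filter or fewest reads, 0 with listed fragments and 3 with the DESeq2 test, where Fhl2, Tgfbrap1 and Mrps9 passed and Nck2 did not (1 to 6 with libraries left out, 6 without either NSC library). The 2 for NSC against ES became 1 with DESeq2 size factors or fewest reads and 0 with listed fragments (1 to 2). The 0 for N2a against NSC became 1 with both scalings and with reads within 1 Mb as library size (0 to 1). The 1 for neuron against ES became 0 with listed fragments (0 to 3). The 2 for N2a against ES became 0 with both scalings, fewest reads and listed fragments, and 4 with the DESeq2 test (0 to 5). For neuron against NSC it was 0 to 2, 2 without NSC replicate 1.

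The exact permutation p ran from 0.0667 to 0.133 for the share and from 0.0476 to 0.133 for the ratio with libraries left out, and was under 0.05 only for the ratio without NSC replicate 1. With the replicate number as a block it was 0.208 for the share and 0.125 for the ratio (24 arrangements). The replicate block moved the genes called over 4 cell types to 1, those for NSC against ES to 1 and those for N2a against ES to 0, and the windows for N2a against ES to 2. It ended the calls of Nck2 over 4 cell types (adjusted p = 0.115) and for NSC against ES (0.0556), of Fhl2 and Tgfbrap1 for N2a against ES (0.0578 each), and of the window at 43240001 for N2a against NSC (0.0541). The numbers are not known to mark a shared culture or day. With 2 libraries per cell type and NSC replicate 1 at 13172 cis reads, differences of single windows under 4-fold were often not detectable.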
